A study of Homo sapiens with 8 samples.

Results

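The subunits described here were the 10 genes of the COMPASS family that a pooled knockout screen covered under the names *ASH2L*, *RBBP5*, *WDR5* and *DPY30* (the shared core), *CXXC1*, *WDR82*, *SETD1A* and *SETD1B* (the SETD1 complexes), and *KMT2C* and *KMT2D* (the catalytic subunits of the MLL3 and MLL4 complexes). They were picked by gene symbol and made up 10 of the 779 genes in the screen. All 10 were measured, each with 10 sgRNAs, and no sgRNA of any library was at 0, so that no member was lost to a filter. The screen was run in Cas9-expressing T1-160 cells, a line derived from the triple-negative breast cancer line SUM159PT by stepwise selection in Taxol and kept in the drug. The cells received EPIKOL, a lentiviral sgRNA library against chromatin regulators, and were selected with puromycin in the presence of verapamil, an inhibitor of drug efflux. The groups were 3 libraries from cells grown in 160 nM Taxol for 16 population doublings (Taxol), 3 from cells grown in DMSO for 16 population doublings (DMSO), and 2 from cells collected right after puromycin selection (AP, replicates 1 and 3). All groups carried Cas9 and had the same selection, and they came from a single resistant derivative. The labels do not say whether replicates came from separate infections, so the variation between these libraries may be technical. P-values from tests on gene means measure only that variation. Those from ranks of sgRNAs compare ranks, not libraries.

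COMPASS complexes place methyl groups on lysine 4 of histone H3 (H3K4), a mark of active promoters and enhancers. Each complex joins a catalytic SET-domain protein to a core of WDR5, RBBP5, ASH2L and DPY30, without which the catalytic protein has little activity. The SETD1A and SETD1B complexes carry CXXC1, which binds unmethylated CpG islands, and WDR82, which binds the initiating form of RNA polymerase II, and they lay down most of the trimethylated H3K4 at promoters. KMT2C (MLL3) and KMT2D (MLL4) act mainly at enhancers, where they add a single methyl group, and both genes are often mutated in cancer, breast cancer included.

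The abundance of an sgRNA stands for the abundance of the cells that carry it. The level of a gene is given below as the mean over its 10 sgRNAs of log2(normalized count + 1), on which changes of rare sgRNAs come out too small, and the difference between groups as a log2 fold change ± the SD of that level between libraries, pooled over both groups. Libraries held 2045985 to 11771419 reads, with Taxol 2 the shallowest and Taxol 1 the deepest, and the sgRNAs of the 10 genes had medians of 137.5 to 775.0 reads per library. The lowest of them had 8 reads, in Taxol 3. The 10 most abundant sgRNAs took 6.23% to 10.6% of the counts of a Taxol library, but no more than 2.80% of any DMSO or AP library. *ABCB1* and *ABCG2*, both drug efflux pumps, were positive controls of the screen, and only *ABCB1* is described here. *ABCB1* fell in Taxol against DMSO, with a log2 fold change of -0.87 ± 0.33 and 9 of 10 sgRNAs lower (rank aggregation, adjusted p = 0.0310). That call was lost without Taxol 1 (adjusted p = 0.0758), Taxol 3 (0.0578), DMSO 1 (0.127) or DMSO 2 (0.292), when sgRNAs were ranked by log2 fold change (0.0599) and with 10% of ranks (0.214). On gene means *ABCB1* did not pass (limma, adjusted p = 0.193), but it did with the replicate number as a block (0.0116).

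The comparisons of grown cells with AP asked which knockouts were lost or gained over the culture. In both media, knockouts of the shared core and of the SETD1 complexes lay mostly below AP, while those of *KMT2D* lay above it. The median log2 fold change in Taxol against AP was -0.23 for the 4 core genes, -0.26 for the 4 genes of the SETD1 complexes and 0.72 for the 2 MLL3/4 genes, against 0.20 over all 779 genes. In DMSO against AP, the same medians were -0.39, -0.29 and 0.56, against 0.15 over all genes. Both comparisons share the AP libraries and are therefore not independent of each other. Single sgRNAs followed the same division. In Taxol, 28 of 40 core sgRNAs, 27 of 40 SETD1 sgRNAs and 1 of 20 MLL3/4 sgRNAs lay below AP, and in DMSO 28 of 40, 28 of 40 and 5 of 20, while 42.2% (Taxol) and 43.2% (DMSO) of the 7855 sgRNAs did. Most of the 80 non-targeting sgRNAs also lay above AP, with lower quartiles of 0.18 in Taxol and 0.05 in DMSO. The few MLL3/4 sgRNAs below AP therefore do not set these genes apart from sgRNAs without a target.

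**Figure D1:**
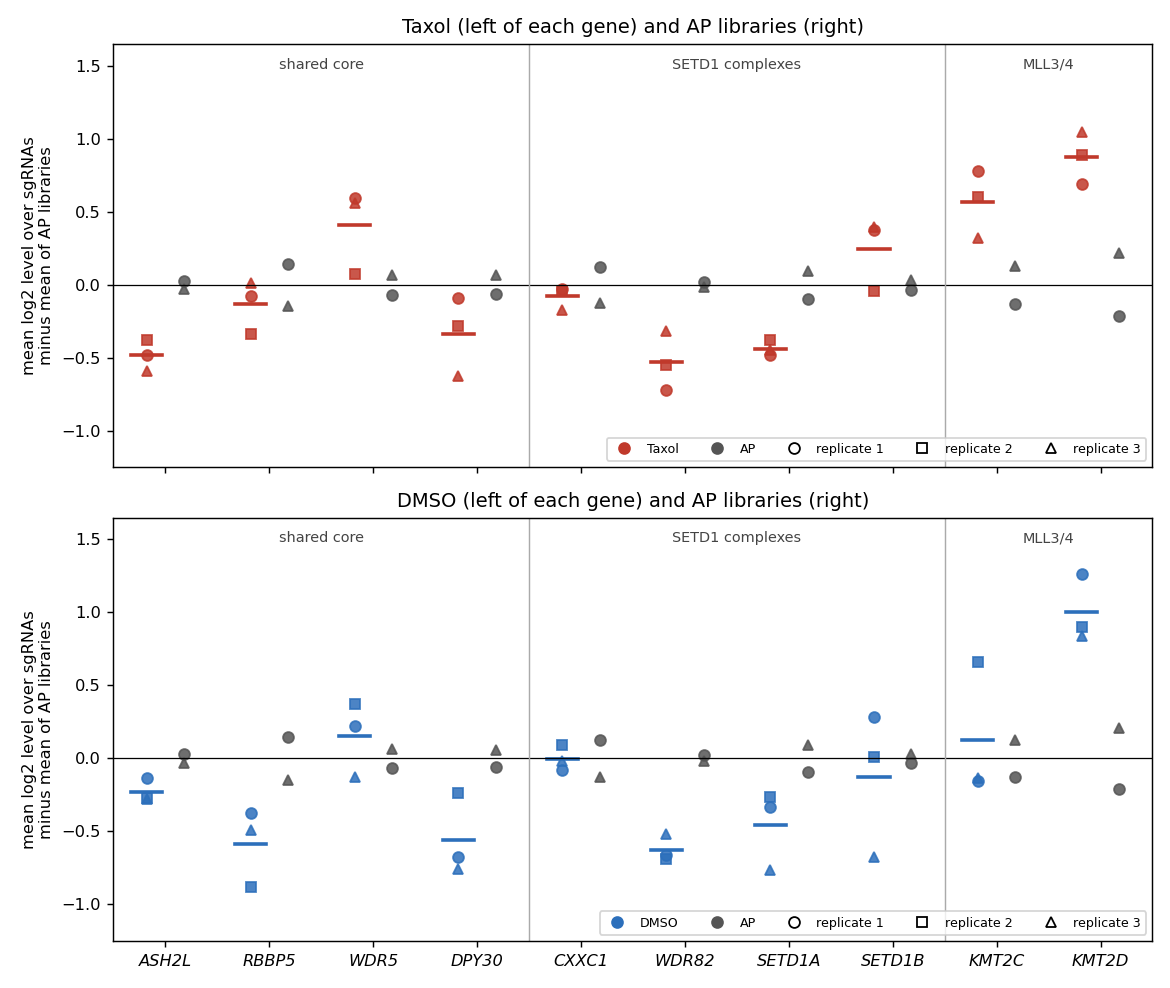
Level of each gene in each library, as the mean over 10 sgRNAs of log2(normalized count + 1) minus the mean of the AP libraries of the same table (y axis), for Taxol above and DMSO below. Each point is a library, the shape gives the replicate and the bar is the mean of the grown libraries. *ASH2L*, *DPY30*, *WDR82* and *SETD1A* lie below both AP libraries in both media, and *KMT2D* lies above both.

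Calls came from a rank aggregation, which asks whether the sgRNAs of a gene lie toward one end of the ranking of all sgRNAs, and from limma on gene means, which sets the difference against the spread between libraries. Both were adjusted over all genes and called at an adjusted p under 0.05. By rank aggregation 1 of the 10 genes, *ASH2L*, was depleted in Taxol against AP, where 4.62% of all genes were, and none was in DMSO against AP, where 2.05% of all genes were. None was enriched in either (1.41% of all genes in Taxol and 0.128% in DMSO). At an unadjusted p under 0.05, 4 of the 10 were depleted in Taxol (13.1% of all genes) and 3 in DMSO (11.8% of all genes), and *KMT2D* was enriched in each (8.34% and 8.09% of all genes). On gene means, 1 of the 10, *KMT2D*, rose in DMSO against AP, where 0.77% of all genes did and 1.41% were lower, and none was called in Taxol, where 0.128% of all genes were higher. All 3 Taxol libraries lay below both AP libraries for 4 of the 10 genes, against 14.5% of all genes, and above both for 3 of the 10, against 32.3%. In DMSO 5 of the 10 genes had every library under both AP libraries, against 14.1% of all genes, and 1 had every library over them, against 29.3%. These counts of libraries involve the same AP samples throughout.

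The scale of these values depends on what is held constant. The median level of the 80 non-targeting sgRNAs, which target no gene, was 9.32 in Taxol against 8.80 in AP, a difference of 0.53, and 9.49 in DMSO against 9.18 in AP, a difference of 0.31. Set against these sgRNAs instead of the deposited normalization, every member moves down by that amount. Then *WDR5* and *SETD1B* turned to -0.12 and -0.28 in Taxol, and *WDR5* and *KMT2C* to -0.15 and -0.19 in DMSO, while *KMT2D* stayed above 0 at 0.35 in Taxol and 0.69 in DMSO. On that scale *ASH2L*, *DPY30*, *WDR82* and *SETD1A* passed the test on gene means in Taxol against AP, at adjusted p = 0.00406, 0.0222, 0.00433 and 0.00801 (limma), where 19.3% of all genes were lower.

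ASH2L binds RBBP5 and DPY30 and is needed for the activity of every COMPASS catalytic subunit. The level of *ASH2L* was 8.59, 8.69 and 8.48 in Taxol 1 to 3, against 9.09 and 9.04 in AP 1 and AP 3, so the groups did not overlap. *ASH2L* fell in Taxol by 0.48 ± 0.09 on the log2 scale, with 8 of 10 sgRNAs lower (rank aggregation, adjusted p = 0.0118). All 3 Taxol libraries were below both AP libraries for 6 of the 10 sgRNAs. The normalized counts of the sgRNA epikol_v2_422, the lowest of the 10 by fold change, were 423, 745 and 513 in Taxol and 1083 and 1138 in AP. For epikol_v2_424 they were 415, 613 and 532 in Taxol and 815 and 917 in AP, and for epikol_v2_427 they were 245, 361 and 386 in Taxol and 596 and 587 in AP. The sgRNA epikol_v2_425 ran the other way in every library, with 844, 1045 and 712 in Taxol and 633 and 594 in AP. No single sgRNA passed the test over all 7855 sgRNAs in any comparison (limma), and none of those of *ASH2L* was at an unadjusted p under 0.05 in Taxol against AP. The call did not hold without AP 1 (adjusted p = 0.0583) or without AP 3 (adjusted p = 0.213), nor with the lowest 10% of ranks (adjusted p = 0.105), and the gene mean alone did not pass (limma, adjusted p = 0.176). In DMSO the level of *ASH2L* was 9.32, 9.18 and 9.18, against 9.48 and 9.42 in AP, a log2 fold change of -0.23 ± 0.07 (rank aggregation, adjusted p = 0.474).

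**Figure D2:**
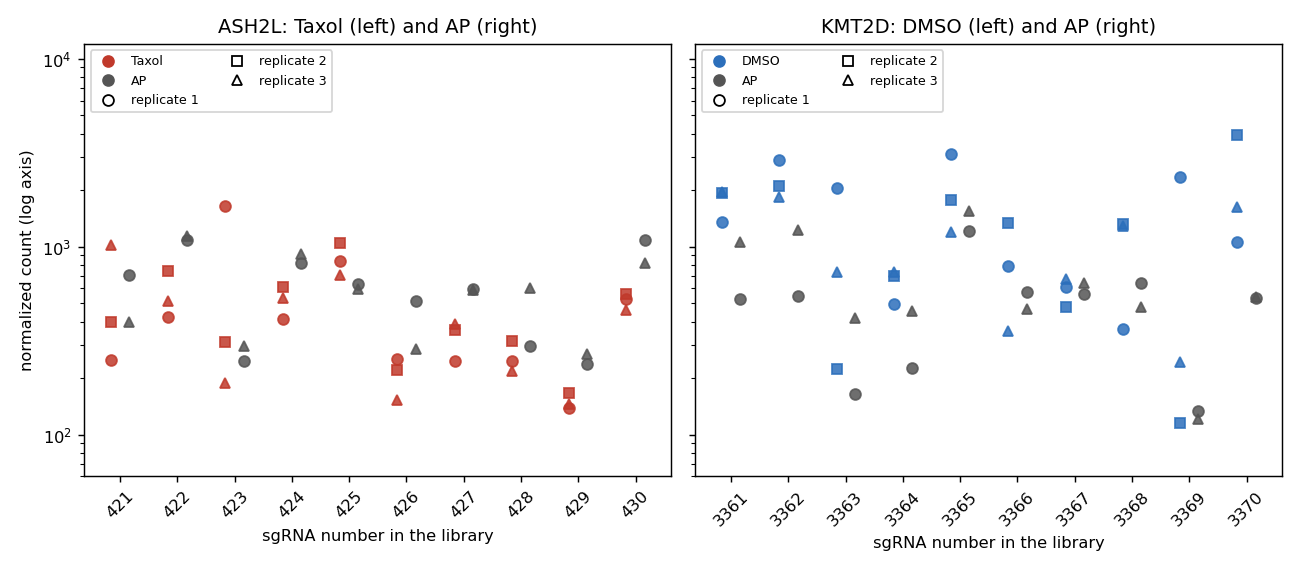
Normalized counts (log axis) of the 10 sgRNAs of *ASH2L* in Taxol and AP libraries (left) and of *KMT2D* in DMSO and AP libraries (right), each point a library, with the grown libraries left of AP at each sgRNA. Most *ASH2L* sgRNAs lie lower in Taxol, 8 of 10 by their mean log2 level, and most *KMT2D* sgRNAs lie higher in DMSO, 9 of 10 by theirs.

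RBBP5 is the scaffold that, with ASH2L, contacts the SET domain. The level of *RBBP5* was 7.99, 7.49 and 7.88 in DMSO 1 to 3, against 8.52 and 8.22 in AP, and in Taxol it was 7.91, 7.64 and 8.00, against 8.13 and 7.84 in AP. The groups were apart in DMSO and overlapped in Taxol. The log2 fold change was -0.58 ± 0.25 in DMSO (rank aggregation, exact p = 0.0123, adjusted p = 0.192) and -0.13 ± 0.19 in Taxol (exact p = 0.0205, adjusted p = 0.217), with 8 of 10 sgRNAs lower in each. The value in Taxol was 0.01 without AP 1, -0.03 without Taxol 2, -0.21 without Taxol 3 and -0.28 without AP 3. Against non-targeting sgRNAs *RBBP5* was at -0.66 in Taxol and -0.89 in DMSO (limma on gene means, adjusted p = 0.0869 and 0.144). The sgRNAs of *RBBP5* lay far apart in Taxol against AP, with an SD of 1.14 between their log2 fold changes, the largest among the 10 genes. Of the remaining pair of sgRNAs, epikol_v2_5119 had 973, 669 and 1423 in Taxol and 175 and 295 in AP, higher in all 3 libraries. The other, epikol_v2_5112, had 36086, 1365 and 1586 in Taxol and 924 and 1496 in AP, so that a single library, Taxol 1, held nearly all of its excess.

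DPY30 is the small dimeric subunit that docks on ASH2L. The level of *DPY30* was 8.29, 8.10 and 7.76 in Taxol, against 8.32 and 8.45 in AP, and 8.09, 8.53 and 8.01 in DMSO, against 8.71 and 8.83 in AP. Every grown library lay below both AP libraries, by a narrow margin in Taxol 1. The log2 fold change was -0.33 ± 0.23 in Taxol (rank aggregation, adjusted p = 0.361) and -0.56 ± 0.23 in DMSO (adjusted p = 0.466), with 8 of 10 sgRNAs lower in each. The sgRNA epikol_v2_1818 had 263, 366 and 243 in DMSO and 1184 and 862 in AP, low in every DMSO library. In the table of Taxol and AP it had 1479, 379 and 381 in Taxol and 904 and 661 in AP, so that Taxol 1 lay above AP and the other Taxol libraries below.

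WDR5, which holds the catalytic subunits to the core and also serves in complexes outside COMPASS, had values above AP by its means on the deposited scale. The level of *WDR5* was 9.62, 9.10 and 9.58 in Taxol, against 8.95 and 9.09 in AP, and 9.63, 9.78 and 9.28 in DMSO, against 9.34 and 9.48 in AP. Its log2 fold change was 0.41 ± 0.25 in Taxol and 0.15 ± 0.21 in DMSO (-0.12 and -0.15 against non-targeting sgRNAs), which did not pass in either medium (limma on gene means, adjusted p = 0.283 and 0.679). In Taxol this mean rested on few sgRNAs. The sgRNAs epikol_v2_7030 and epikol_v2_7029 had 25764 and 12235 in Taxol 1, against at most 1171 and 1086 in AP, and the median over sgRNAs in place of the mean gave -0.12 for the gene.

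In the SETD1 complexes, *WDR82* and *SETD1A* lay lower in both media, and *CXXC1* and *SETD1B* did not stand out on the deposited scale. The level of *WDR82* was 7.89, 8.06 and 8.30 in Taxol, against 8.63 and 8.59 in AP, and 8.33, 8.31 and 8.48 in DMSO, against 9.02 and 8.98 in AP. The groups did not overlap in either medium. The log2 fold change of *WDR82* was -0.53 ± 0.17 in Taxol, with 9 of 10 sgRNAs lower (rank aggregation, exact p = 0.00419, adjusted p = 0.0735), and -0.62 ± 0.08 in DMSO, with 7 of 10 lower (exact p = 0.0116, adjusted p = 0.189). It thus missed the threshold in both. In Taxol *WDR82* passed the rank aggregation without Taxol 2 (adjusted p = 0.0475). It did not pass without Taxol 1 (0.327) or Taxol 3 (0.0846), or with the lowest 10% of ranks (0.292). Its log2 fold change in Taxol was -0.51 without AP 1 and -0.55 without AP 3. The strongest of its sgRNAs, epikol_v2_7044, had 91, 120 and 101 in Taxol and 470 and 340 in AP, and 86, 122 and 273 in DMSO and 616 and 443 in AP of the other table. The exception was epikol_v2_7042, with 897, 190 and 2312 in Taxol and 269 and 176 in AP, high in 2 of 3 libraries.

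*SETD1A*, which encodes the catalytic subunit, had a level of 7.42, 7.53 and 7.46 in Taxol, against 7.81 and 8.00 in AP, and of 7.96, 8.02 and 7.52 in DMSO, against 8.20 and 8.38 in AP. All grown libraries lay below both AP libraries. The log2 fold change was -0.44 ± 0.09 in Taxol (rank aggregation, exact p = 0.0513, adjusted p = 0.384) and -0.46 ± 0.23 in DMSO (exact p = 0.0188, adjusted p = 0.239), with 8 of 10 sgRNAs lower in each. Its paralog *SETD1B* was at 0.24 ± 0.21 in Taxol, or -0.28 against non-targeting sgRNAs, and -0.13 ± 0.40 in DMSO, with 4 and 6 of 10 sgRNAs lower. Its value in DMSO turned to 0.15 without DMSO 3 and was -0.33 without DMSO 1 and -0.20 without DMSO 2, and that in Taxol was 0.39 without Taxol 2. The 95% interval of the difference was -0.22 to 0.70 in Taxol and -0.68 to 0.43 in DMSO (limma), so a shift the size of that of *SETD1A* lay within it in DMSO but not in Taxol. The difference between both paralogs was not tested.

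On the deposited scale *CXXC1* had a log2 fold change of -0.08 ± 0.12 in Taxol and -0.00 ± 0.13 in DMSO, the values nearest to 0 among the 10 genes in each comparison. The 95% interval was -0.54 to 0.38 in Taxol and -0.44 to 0.43 in DMSO (limma). On that scale its sign turned with the AP library that was left out, at 0.04 without AP 1 and -0.20 without AP 3 in Taxol, and 0.13 and -0.13 in DMSO. Against non-targeting sgRNAs *CXXC1* was at -0.60 in Taxol and -0.31 in DMSO (limma on gene means, adjusted p = 0.104 and 0.867), no longer nearest to 0. One of its sgRNAs, epikol_v2_1583, was far more abundant than the others from the start, with 21025, 23872 and 18955 in Taxol and 8886 and 16772 in AP. The remaining 9 were between 81 and 1439 in the same libraries.

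The catalytic subunits of the MLL3 and MLL4 complexes lay above AP by their means in both media, although *KMT2C* in DMSO turned to -0.19 against non-targeting sgRNAs. The level of *KMT2D* was 10.21, 9.85 and 9.79 in DMSO, against 8.73 and 9.16 in AP, and 9.25, 9.45 and 9.61 in Taxol, against 8.35 and 8.78 in AP. Each grown library lay above both AP libraries. *KMT2D* rose in DMSO with a log2 fold change of 1.00 ± 0.25, the fourth highest of all 779 genes, with 9 of 10 sgRNAs higher (limma on gene means, adjusted p = 0.0271). By rank aggregation it did not pass (exact p = 0.00107, adjusted p = 0.0924). Nor did it without DMSO 1 (adjusted p = 0.352) or DMSO 3 (0.112), or with the highest 10% of ranks (0.184). It did pass that test without DMSO 2 (adjusted p = 0.0282) and with the replicate number as a block (adjusted p = 0.0447). AP has no replicate 2, so that block also leaves DMSO 2 out of the difference. Both settings gave a log2 fold change of 1.05 and are not separate checks. In Taxol its log2 fold change was 0.88 ± 0.23 with 10 of 10 sgRNAs higher (limma on gene means, adjusted p = 0.0773, rank aggregation, adjusted p = 0.412). It passed the rank aggregation in Taxol without Taxol 1 (adjusted p = 0.00850). It did not pass without Taxol 2 (0.681) or Taxol 3 (0.467), or with the highest 10% of ranks (0.958). The log2 fold change in Taxol was 0.66 without AP 1 and 1.09 without AP 3.

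The counts of single *KMT2D* sgRNAs show both even and uneven gains. In DMSO, epikol_v2_3362 had 2884, 2111 and 1847, against 547 and 1232 in AP, and epikol_v2_3370 had 1066, 3930 and 1620, against 531 and 538 in AP, so that every library took part. For epikol_v2_3369, DMSO 1 alone had 2341, while DMSO 2 and DMSO 3 had 116 and 244, against 134 and 121 in AP. The call of *KMT2D* on gene means was lost without DMSO 1 (adjusted p = 0.113), without DMSO 3 (0.0868), without AP 1 (0.889) and without AP 3 (0.0654), and held without DMSO 2 (0.0148, limma). It was also lost with the median over sgRNAs (adjusted p = 0.0860) and against non-targeting sgRNAs (log2 fold change 0.69, adjusted p = 0.311, limma).

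For *KMT2C* the values lay above AP in Taxol and around it in DMSO. Its level was 9.19, 9.01 and 8.74 in Taxol, against 8.28 and 8.54 in AP, and the groups did not overlap. In DMSO it was 8.64, 9.46 and 8.67, against 8.67 and 8.93 in AP, with only DMSO 2 above both AP libraries. The log2 fold change was 0.57 ± 0.22 in Taxol with 9 of 10 sgRNAs higher (limma on gene means, adjusted p = 0.159), and 0.12 ± 0.39 in DMSO with 6 of 10 higher (adjusted p = 0.780). The value in DMSO turned to -0.14 without DMSO 2 and was -0.01 without AP 1, and was 0.25 to 0.26 without DMSO 1, DMSO 3 or AP 3. Against non-targeting sgRNAs the value in Taxol was 0.04. The sgRNA epikol_v2_3355 had 1490, 567 and 978 in Taxol and 221 and 212 in AP, and 387, 707 and 290 in DMSO and 289 and 277 in AP of the other table.

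**Figure D3:**
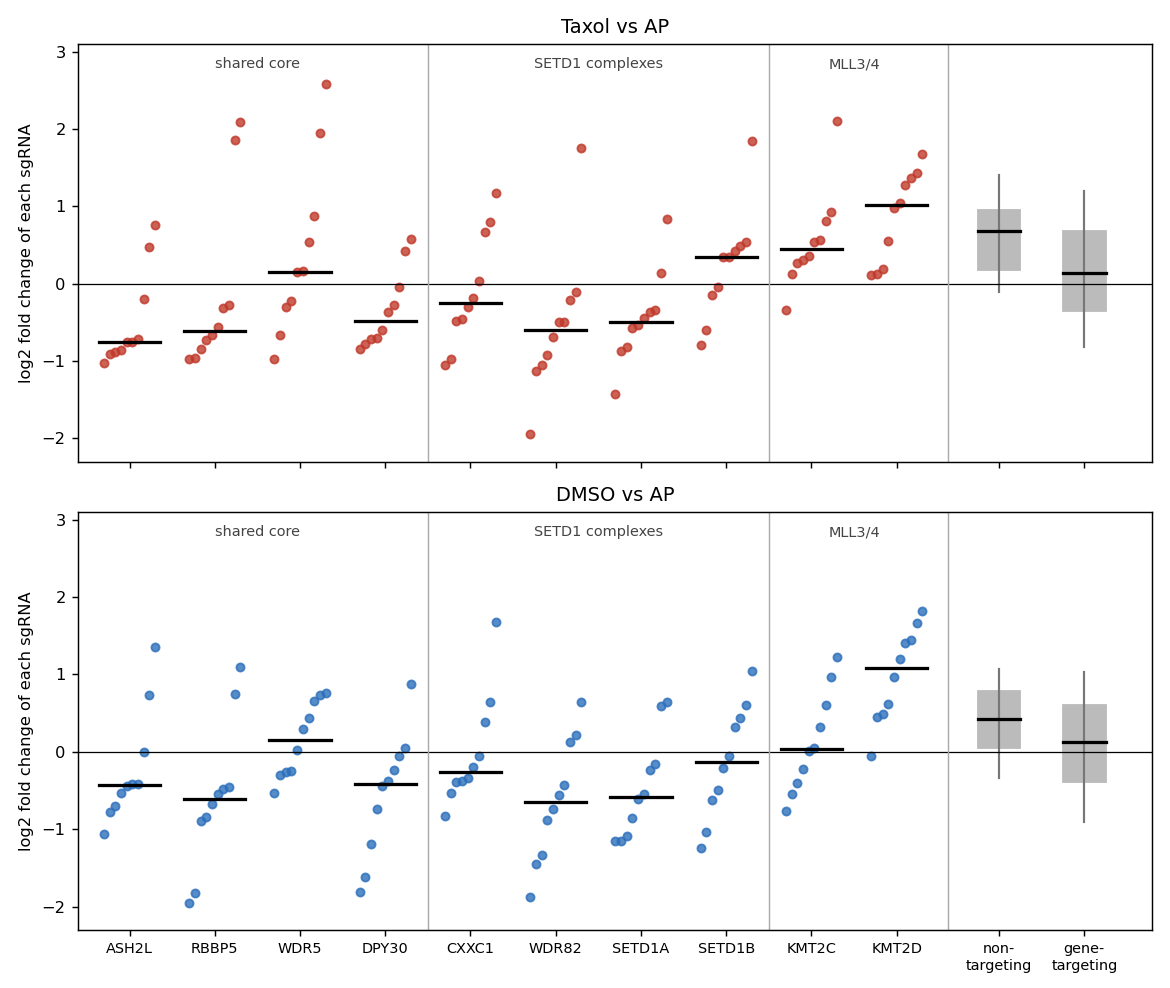
Log2 fold change of each sgRNA (y axis) in Taxol against AP (above) and DMSO against AP (below), sorted within each gene, with the gene median as a bar. Grey boxes give the quartiles and the median, and lines the middle 80% of values, for 80 non-targeting and 7775 gene-targeting sgRNAs. In Taxol 1 of the 20 *KMT2C* and *KMT2D* sgRNAs lies below 0, and 28 of the 40 core sgRNAs do. The box of the non-targeting sgRNAs lies above 0 in both panels.

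Setting Taxol against DMSO addressed which knockouts altered the growth of resistant cells under the drug itself. None of the 10 genes passed a test, by rank aggregation (0.257% of all genes were depleted and 0.128% enriched) or on gene means (0 genes lower and 0.128% higher, or 1 and 2 genes with the replicate number as a block). At an unadjusted p under 0.05 by rank aggregation, 1 of the 10, *KMT2C*, was enriched, against 6.55% of all genes, and 0 were depleted, against 4.75% of all genes. The medians were 0.19 for the core, 0.01 for the SETD1 complexes and 0.11 for the MLL3/4 genes, against 0.03 over all genes. Of the sgRNAs of the 10 genes, 46 of 100 were lower in Taxol, against 47.8% of all sgRNAs. The median of the non-targeting sgRNAs was 9.21 in Taxol and 9.04 in DMSO, a difference of 0.17, and against it *WDR82* turned to -0.12. With medians over sgRNAs in place of means, *WDR5* and *WDR82* turned to -0.24 and -0.08, *KMT2D* moved to -0.55 and *CXXC1* to -0.01.

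By means over sgRNAs *ASH2L* was the lowest of the 10 genes in this comparison, while by medians *KMT2D* (-0.55) lay below it (-0.37). Its level was 8.47, 8.58 and 8.36 in Taxol, against 8.90, 8.67 and 8.75 in DMSO, and the groups did not overlap, as was so for 4.49% of all genes in that direction. For 0 of the 10 genes did all Taxol libraries lie above all DMSO libraries, against 6.29% of all genes. The log2 fold change was -0.30 ± 0.11, with 8 of 10 sgRNAs lower (rank aggregation, exact p = 0.0622, adjusted p = 0.950), and its 95% interval was -0.75 to 0.14 (limma). *CXXC1* was also lower in every Taxol library, at 9.16, 9.15 and 9.01, against 9.18, 9.26 and 9.24 in DMSO, with a log2 fold change of -0.12 ± 0.07 (adjusted p = 0.969).

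*RBBP5* and *KMT2C* were the highest. The level of *RBBP5* was 7.80, 7.53 and 7.88 in Taxol, against 7.58, 6.97 and 7.45 in DMSO, a log2 fold change of 0.40 ± 0.26 with a 95% interval of -0.05 to 0.85 (limma). That of *KMT2C* was 9.08, 8.90 and 8.61 in Taxol, against 8.22, 8.94 and 8.24 in DMSO, a log2 fold change of 0.40 ± 0.34 with an interval of -0.08 to 0.87 (rank aggregation, exact p = 0.0389, adjusted p = 0.680). For both, 1 library of a group reached into the range of the other. Within same-numbered pairs *RBBP5* was higher in Taxol in 3 of 3 and *KMT2C* in 2 of 3, and with the replicate number as a block neither passed (limma on gene means, adjusted p = 0.584 and 0.665). The value of *RBBP5* was 0.22 without DMSO 2, and that of *KMT2C* 0.64 without DMSO 2. Among the sgRNAs of *KMT2C*, epikol_v2_3357 had 694, 579 and 440 in Taxol and 192, 289 and 160 in DMSO, and epikol_v2_3355 had 1380, 525 and 898 in Taxol and 289, 494 and 216 in DMSO.

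The other 6 genes had log2 fold changes between -0.17 and 0.32 and overlapping groups. They were *KMT2D* at -0.17 ± 0.22, *SETD1A* at -0.03 ± 0.18, *WDR82* at 0.05 ± 0.17, *DPY30* at 0.18 ± 0.25, *WDR5* at 0.21 ± 0.26 and *SETD1B* at 0.32 ± 0.39. These values depended on single libraries. *WDR82* turned to -0.05 without Taxol 3 and -0.01 without DMSO 2, and *SETD1A* to 0.05 without DMSO 1 and 0.04 without DMSO 2, against -0.17 without DMSO 3. *SETD1B* was 0.06 without DMSO 3 and 0.55 without DMSO 1, *KMT2D* -0.02 without DMSO 1 and -0.08 without Taxol 1, *DPY30* between 0.05 (without Taxol 1) and 0.33 (without Taxol 3), and *WDR5* between 0.08 (without DMSO 3) and 0.38 (without Taxol 2). For *SETD1A* the 95% interval was -0.47 to 0.41 and for *WDR82* -0.38 to 0.48 (limma).

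**Figure D4:**
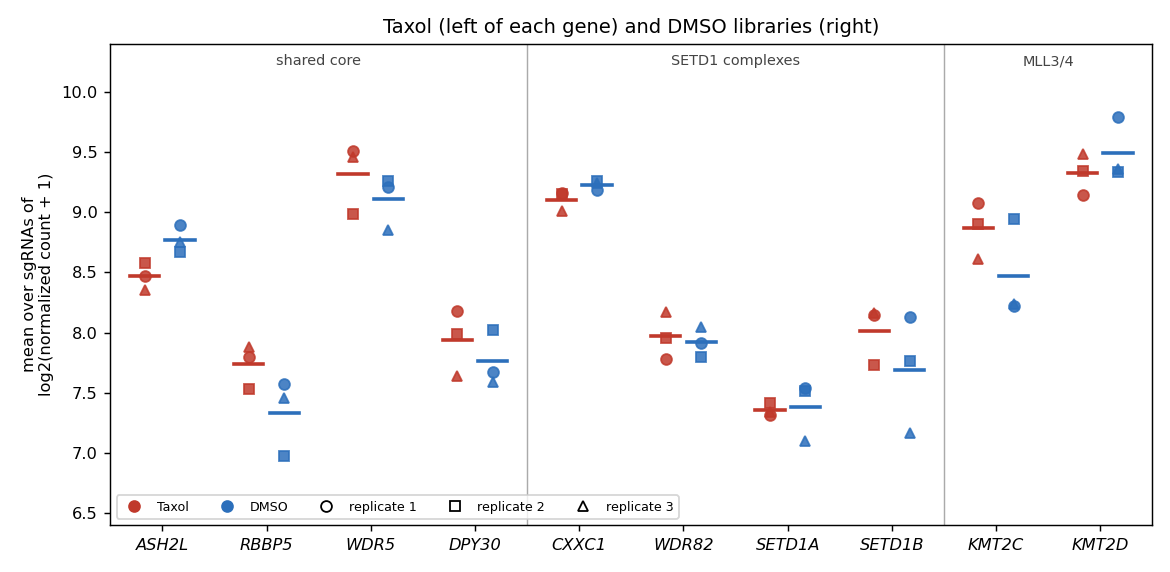
Level of each gene as the mean over 10 sgRNAs of log2(normalized count + 1) in the Taxol libraries (left of each gene) and the DMSO libraries (right), each point a library and each bar a group mean. *ASH2L* and *CXXC1* lie lower in all 3 Taxol libraries, and the groups overlap for the other 8 genes.

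A few sgRNAs, of the core and of *KMT2D*, were high in 1 Taxol library. In the table of Taxol and DMSO, *RBBP5* epikol_v2_5112 had 33401 normalized counts in Taxol 1, against 1264 and 1457 in Taxol 2 and Taxol 3 and 1880, 1548 and 2297 in DMSO. *WDR5* epikol_v2_7030 had 23847 in Taxol 1, against 941 and 2744 in the other Taxol libraries and 1434, 912 and 947 in DMSO. *KMT2D* epikol_v2_3362 had 8408 in Taxol 1, against 667 and 594 in the other Taxol libraries and 2154, 1476 and 1372 in DMSO, while the remaining 9 sgRNAs of *KMT2D* stayed between 64 and 2722 in Taxol. High single counts were also seen in DMSO, as for *WDR5* epikol_v2_7027 with 2137 in DMSO 2, against 152 and 243 in DMSO 1 and DMSO 3.

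Other genes of the H3K4 pathway were taken from 4 lists. Of 10 measured genes of the other MLL and COMPASS complexes (of 13 listed), none was called in any comparison by either test (in Taxol against DMSO 0.257% of all genes were depleted, in Taxol against AP 4.62% and in DMSO against AP 2.05%). At an unadjusted p under 0.05 by rank aggregation, 3 of the 10 were depleted in Taxol against DMSO, where 4.75% of all genes were, and the list had a median of -0.21, against 0.03 over all genes. They were *MEN1*, *PSIP1* (-0.42 ± 0.50) and *KMT2A* (-0.45 ± 0.10), the last of which is named after its values were seen. In Taxol against AP 3 of the 10 were depleted at that level, against 13.1% of all genes. In DMSO against AP 1 was depleted and 1 enriched, against 11.8% and 8.09% of all genes. In Taxol against DMSO the lowest was *MEN1*, which encodes menin, the subunit that ties KMT2A and KMT2B to chromatin, at -0.80 ± 0.20 with 10 of 10 sgRNAs lower (rank aggregation, adjusted p = 0.288), and the highest was *KDM6A* at 0.20 ± 0.42. Against AP, *KDM6A*, the H3K27 demethylase of the MLL3/4 complexes, had 0.82 ± 0.45 in Taxol, the highest of the list, with 10 of 10 sgRNAs higher, and 0.57 ± 0.25 in DMSO with 8 of 10 higher (limma on gene means, adjusted p = 0.156 and 0.170). *PSIP1*, which encodes the chromatin tether LEDGF, was the highest in DMSO at 0.85 ± 0.44. The median of the non-targeting sgRNAs itself lay above AP, by 0.53 in Taxol and 0.31 in DMSO. Relative to it these rises of *KDM6A* and *PSIP1* would be smaller. *HCFC1*, a cofactor shared by several MLL and SETD1 complexes, was the lowest against AP, at -0.56 ± 0.19 in Taxol and -0.62 ± 0.31 in DMSO (rank aggregation, adjusted p = 0.0835 and 0.256).

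Of 10 measured genes of other complexes that contain WDR5 or WDR82 (of 12 listed), *KAT8* and *KANSL3* were depleted in Taxol against AP, where 4.62% of all genes were. KAT8 is the H4K16 acetyltransferase of the NSL complex, and KANSL3 is a subunit of that complex. *KAT8* had -0.61 ± 0.23 with 9 of 10 sgRNAs lower, and *KANSL3* -0.29 ± 0.06 with 7 of 10 lower (rank aggregation, adjusted p = 0.0203 and 0.0414), while their gene means did not pass (limma, adjusted p = 0.153 and 0.333). Neither call held when any 1 of the 5 libraries was left out, with adjusted p from 0.0733 (without Taxol 3) to 0.503 (without AP 1) for *KAT8* and from 0.199 (without Taxol 2 or AP 1) to 0.484 (without Taxol 1) for *KANSL3*. In DMSO against AP they had -0.62 ± 0.27 and -0.29 ± 0.11 without passing, and *KAT8* was the lowest of the list. The median of the list was -0.01 in Taxol and -0.15 in DMSO. Its highest genes were *PHF20* in Taxol (0.34) and *KAT2A* in DMSO (0.10) against AP, and in Taxol against DMSO the list ran between *KANSL2* at -0.36 and *ZZZ3* at 0.37.

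Neither the H2B ubiquitination and PAF1 genes, which act upstream of COMPASS on chromatin (9 of 12 measured), nor the H3K4 demethylases, which remove the mark (6 of 7 measured), held a called gene in any comparison. In the first list the extremes were *CTR9* (-0.42) and *UBE2A* (0.47) in Taxol against AP, *CDC73* (-0.32) and *RNF40* (0.31) in DMSO against AP, and *UBE2B* (-0.29) and *CDC73* (0.37) in Taxol against DMSO. Among the demethylases 6 of 6 lay above 0 in Taxol and 5 of 6 in DMSO against AP, with medians of 0.44 and 0.37, against 0.20 and 0.15 over all genes and 0.53 and 0.31 for the non-targeting sgRNAs, relative to which the median in Taxol would lie below 0. *KDM1A*, the demethylase LSD1, was the lowest in both, at 0.23 in Taxol and -0.23 in DMSO, and the highest were *KDM1B* (0.53) in Taxol and *KDM5B* (0.52) in DMSO. In Taxol against DMSO, which shares the DMSO libraries with the comparison of DMSO with AP, *KDM1A* was at 0.41, the highest, and *KDM5B* at -0.13, the lowest.

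For the 2 called members, the genes with the most similar pair of log2 fold changes (DMSO against AP and Taxol against AP, by Euclidean distance over those 2 values) were as follows. Closest to *ASH2L* (-0.23 in DMSO, -0.48 in Taxol) were *MAX* (-0.23, -0.49), *CTR9* (-0.24, -0.42) and *RPL38* (-0.25, -0.42). Closest to *KMT2D* (1.00 in DMSO, 0.88 in Taxol) were *MLLT1* (0.94, 1.03), *UBE2D3* (0.85, 0.81) and *CUL5* (1.01, 1.08), at distances of 0.165 to 0.207, against 0.00847 to 0.0715 for the neighbours of *ASH2L*.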

How the data were processed

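The values were taken from the authors' deposited sgRNA tables, 1 for each pair of groups, which hold normalized counts of 7855 sgRNAs made with MAGeCK 0.5.8 per the submitters' processing notes; how reads were trimmed and mapped is not given in the sources used here. The authors normalized every table on its own, so all tests stayed within a table. The values of a group are joined in a cell, and their order was taken as that of the replicate numbers, which is an assumption. AP cells hold 3 values, of which those in the places of replicates 1 and 3 were used. In all, 2 value columns of no labelled sample were not used. Fold changes, scores, p-values and gene tables of the authors hold their own results and were not used. A row that holds a column heading in place of an sgRNA was left out; it has 0 counts. Reads were recovered from the step of the normalized counts, of which 100% of values up to 1000 reads were whole within 0.1 read. No count model was run, because the deposited cells join several values.

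Values were transformed as log2(normalized count + 1) and each sgRNA was fitted with limma 3.58.1 in R 4.3.3 (eBayes with trend, no covariates). Moderated statistics gave the order of sgRNAs, and a robust rank aggregation (the kind of gene test the study used) combined the ranks within the lowest or highest 25%, with an exact one-sided p from order statistics. This p compares ranks, not libraries. Limma on gene means, two-sided, tested against the spread between libraries. Both were adjusted over 779 genes by the Benjamini-Hochberg method and called at 0.05. Scripts were tested on simulated data. Alternatives were a pseudocount of 10, a mean normalized count of 50 or more, medians over sgRNAs, centring on non-targeting sgRNAs, median-ratio size factors, no trend, ranks by log2 fold change, the lowest or highest 10% of ranks, the replicate number as a block, and each replicate left out.

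Same-numbered Taxol and DMSO libraries deviated together (correlations of 0.169, 0.131 and 0.206), so the numbers pair them under the assumed order of values. The main fit of Taxol against DMSO did not use this pairing. Its SDs, intervals and p-values are therefore unpaired, except where the replicate number is named as a block. The members and the lists were chosen with earlier results of these data known. Named genes were the 10 members, called genes and the extremes of the 4 pathway lists, and the 3 nearest genes of each called member. Groups of 3 and 2 libraries limit the precision, and read depth speaks for counting error only.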

Additional observations from a re-analysis of the deposited data

How the results depend on the processing

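Taxol against DMSO gave 2 genes depleted and 1 enriched by rank aggregation and 0 lower and 1 higher on gene means. Depleted genes were 0 when ranked by log2 fold change, 1 with 10% of ranks and 0 to 1 with a replicate left out. Enriched genes were 2 with a mean count of 50 or more, 4 centred on non-targeting sgRNAs, 2 when ranked by log2 fold change and 1 to 3 with a replicate left out. With the replicate block 1 gene was lower and 2 higher on gene means, against 0 to 1 and 0 to 4 with a replicate left out. No member was called under any of these settings.

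DMSO against AP gave 16 genes depleted and 1 enriched, and 11 lower and 6 higher on gene means. Depleted genes were 26 when ranked by log2 fold change, 8 with 10% of ranks and 10 to 21 with a replicate left out, and enriched ones 1 to 6. On gene means 3 were lower and 3 higher with medians over sgRNAs, 0 were higher centred on non-targeting sgRNAs, and 0 to 20 were lower and 0 to 13 higher with a replicate left out. Among members, ranking by log2 fold change called 1 depleted (*RBBP5*, adjusted p = 0.0364), 0 to 1 were enriched and 0 to 1 passed on gene means with a replicate left out, and 0 passed with medians or centred on non-targeting sgRNAs. Single sgRNAs called lower were 0 to 1 with a replicate left out.

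Taxol against AP gave 36 genes depleted and 11 enriched, and 0 lower and 1 higher on gene means. Depleted genes were 11 with 10% of ranks and 2 to 30 with a replicate left out, and enriched ones 1 to 8. On gene means 2 were lower and 3 higher with medians over sgRNAs, 150 and 4 centred on non-targeting sgRNAs, 5 higher without the trend, and 0 to 1 lower and 0 to 8 higher with a replicate left out. Members depleted were 0 with 10% of ranks and 0 to 2 with a replicate left out, members enriched 0 to 1, and 4 passed on gene means centred on non-targeting sgRNAs.

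In both tables with AP the samples share only a number (correlations of 0.0357 and 0.0105 for DMSO, -0.0174 and 0.0144 for Taxol), so the replicate block there pairs nothing known. With it, DMSO against AP gave 3 genes enriched, 43 lower and 24 higher on gene means, 1 sgRNA lower and 18 higher, 1 member enriched (*KMT2D*) and 2 passing on gene means (*KMT2D* and *DPY30*). Taxol against AP gave 31 genes depleted (3.98% of all genes), among them 2 members (*ASH2L* and *WDR82*). It also gave 4 enriched, and 16 lower and 48 higher on gene means. AP has no replicate 2, so with the block DMSO 2 and Taxol 2 did not enter the fold changes. Those were the same as without DMSO 2 or Taxol 2, as for *KMT2D* (1.05) and *DPY30* (-0.72) in DMSO and *ASH2L* (-0.53) in Taxol. What else moved these counts was not tested. Where an arm was left with 1 AP library, that library was assumed to vary like the others.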
